A study of Mus musculus with 15 samples.

Results

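The genes described here encode the phosphatidylinositol 3-kinase-related kinases (PIKKs) Atm, Atr, Prkdc, Smg1, Mtor and Trrap, and the cofactors Telo2, Tti1 and Tti2 that PIKK proteins share. These 9 genes were chosen by name and were found by their Ensembl identifiers among the 48440 genes of the count table. RNA was sequenced from primary lung fibroblasts of C57BL/6 mice, grown at 3% O2 in every group. The groups were unirradiated Atm+/+ cells at passage 2 and at passage 8, unirradiated Atm-/- cells at the same passages, and Atm+/+ cells labelled passage 2 that were harvested 10 days after 10 Gy of X-rays. No unirradiated group is labelled as held for the same 10 days. Differences of the irradiated cells thus cannot be split into those of radiation and those of time in culture. Each of the 5 groups held 3 libraries, which came from 3 separately established cultures per genotype. Whether replicate 1 is the same culture at both passages is not stated, and neither are the deleted Atm exons or the age and sex of the mice. Passage 2 cells are called early and passage 8 cells late below, and "irradiated" stands for the irradiated Atm+/+ cells. Values are listed for replicates 1, 2 and 3 in that order.

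PIKKs are very large protein kinases that share a catalytic domain related to that of lipid kinases. ATM and DNA-PKcs, the product of Prkdc, respond to DNA double-strand breaks, ATR responds to stalled replication, SMG1 acts in nonsense-mediated mRNA decay, and mTOR couples growth to nutrients. TRRAP has lost catalytic activity and serves as a scaffold of histone acetyltransferase complexes. Newly made PIKK proteins are folded and assembled with the help of HSP90, the R2TP complex and the TTT complex of TELO2, TTI1 and TTI2, so that the steady protein level of a PIKK can depend on TTT. The RNA levels given here do not measure protein or kinase activity.

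Library totals ran from 13.6 to 39.2 M counts. When all were thinned to the smallest total, 17226 genes were detected in early Atm+/+ replicate 3 and 15037 in late Atm-/- replicate 3, while the remaining 13 libraries had 20101 or more. Values without this pair of libraries ("the 13 libraries") are given beside those of all 15, and that fit was chosen after the data were seen. Summed levels of 8 fibroblast markers were 6419 to 34241 CPM, read counts scaled to a common library total, and lowest in late Atm-/- (6419 to 10431). Summed levels of 7 macrophage markers were 1666 to 2284 CPM in early Atm+/+, 762 to 1189 in early Atm-/-, 61.5 to 92.1 in late Atm+/+, 35.2 to 56.5 in late Atm-/- and 1042 to 1798 in irradiated cells. Summed levels of 6 endothelial markers were 227 to 627, 229 to 395, 2.09 to 3.19, 6.93 to 11.0 and 65.1 to 199.7 CPM in the same order. Summed levels of 4 mesothelial markers were 10.1 to 46.5 CPM in late Atm-/- and at most 4.28 CPM elsewhere. Of 6 epithelial markers Epcam and Krt8 stayed under 1 CPM in every library, as did Cd3e and Cd3g of the lymphocyte markers. In RNA from whole cultures, fewer cells of a type cannot be told apart from less RNA per cell.

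One member, Telo2, changed in the fit of all 15 libraries. Its level was lower in late-passage and in irradiated Atm+/+ cells than in early Atm+/+ cells, and its passage difference in Atm-/- cells did not pass. Atm, Atr, Prkdc, Trrap and Tti2 passed no comparison in either set of libraries, while Smg1, Mtor and Tti1 passed some comparisons in the 13 libraries. Calls are from edgeR's quasi-likelihood test with Benjamini-Hochberg adjustment over all 18167 genes tested, at an adjusted p under 0.05. All 9 genes passed the filter on low counts. Of all tested genes 36.0% differed somewhere among the 5 groups, against 1 of the 9 members (Telo2, adjusted p = 0.0109). In the 13 libraries the background was 64.3%, with 4 of the 9 (Mtor, Smg1, Telo2 and Tti1), and in DESeq2 it was 51.5%, with 3 of the 9.

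**Figure D1:**
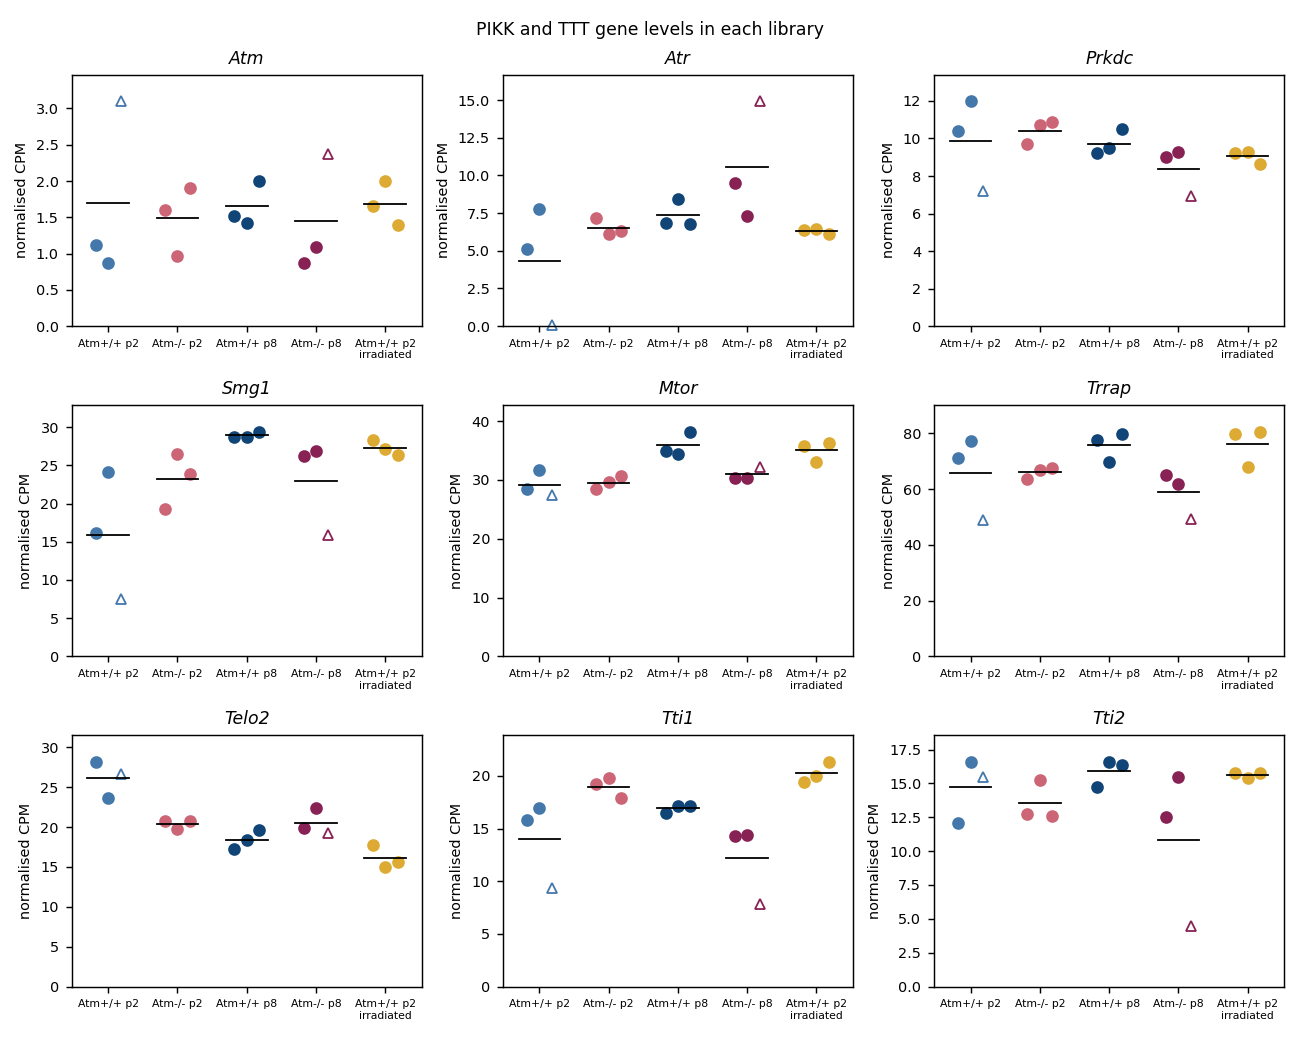
Level of each gene in each library, as normalised CPM on a linear axis from 0, with the mean of each group as a line (n = 3). Open triangles are the libraries with the fewest genes detected. Telo2 is highest in early Atm+/+ (23.6 to 28.2) and lowest in irradiated cells (15.0 to 17.8). A triangle stands apart from its group for Atm, Atr, Prkdc, Smg1, Trrap, Tti1 and Tti2.

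Levels between genes were compared on the deposited TPM values, in which reads are scaled by gene length and library total. Averaged over the 15 libraries, TPM was 9.06 ± 2.46 (SD, n = 15) for Trrap, 7.20 ± 2.48 for Tti1, 6.99 ± 1.16 for Telo2, 6.13 ± 1.42 for Mtor and 4.65 ± 1.39 for Tti2. Below these were Smg1 (2.55 ± 0.894 TPM), Atr (1.39 ± 0.442), Prkdc (1.23 ± 0.306) and Atm (0.257 ± 0.0855). Atm was thus the lowest of the family, and its range (0.133 to 0.405 TPM) did not reach that of Prkdc (0.555 to 1.68). Every other pair of neighbours in this order overlapped. Tti1 was above Telo2 in 9 of 15 libraries, Telo2 above Mtor in 9 of 15, and Atr above Prkdc in 11 of 15. The order of Telo2 and Tti1, and that of Telo2 and Mtor, differed between groups. Telo2 exceeded Tti1 in every early Atm+/+ and late Atm-/- library and in no other. It exceeded Mtor in every library of early Atm+/+, early Atm-/- and late Atm-/- cells and in no other. The order of Atr and Prkdc varied between replicates in early Atm+/+ and in early Atm-/- cells. Within single libraries Trrap exceeded Tti1, and Mtor exceeded Tti2, in 15 of 15.

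**Figure D2:**
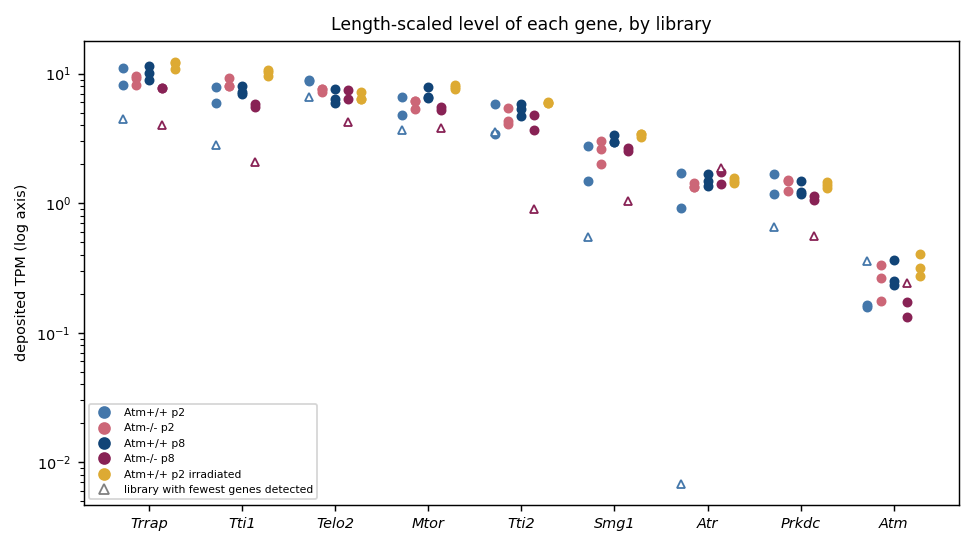
Deposited TPM of each gene in each library, on a log axis, with genes ordered by their mean over 15 libraries and columns of points for the 5 groups. Trrap is highest (mean 9.06 TPM) and Atm lowest (0.133 to 0.405 TPM). A single triangle near the floor is Atr in early Atm+/+ replicate 3.

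Atm lies on chromosome 9 (GRCm38, chr9:53439149-53536740, minus strand, 62 exons in its longest GENCODE vM21 transcript). Its counts in replicates 1 to 3 were 36, 32 and 64 reads in early Atm+/+, 58, 38 and 70 in early Atm-/-, 53, 42 and 73 in late Atm+/+, 30, 34 and 27 in late Atm-/-, and 64, 85 and 50 in irradiated cells. The genotypes overlapped at both passages. A count over the whole gene does not check the genotype label unless it covers only the deleted part. On the log2 scale the genotype difference was -0.17 (SE 0.52) at passage 2 and -0.24 (SE 0.53) at passage 8, with adjusted p = 0.883 and 0.788 in edgeR. In the 13 libraries these were 0.60 (SE 0.33, adjusted p = 0.310) and -0.73 (SE 0.33, adjusted p = 0.119), so that the sign at passage 2 turned when the pair was left out and the sign at passage 8 did not. The difference of the passage effects, Atm-/- minus Atm+/+, went from -0.07 to -1.33 (adjusted p = 0.0697), which did not pass.

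The gene next to Atm is Npat, a coactivator of replication-dependent histone genes, which is transcribed away from Atm on the other strand. In RefSeq (GRCm38.p6) the start sites are 376 bases apart and the 250 bases before each start share 125 bases, chr9:53536797-53536921. Both upstream sequences are shown, read 5′ to 3′ on the strand of their own gene, because this shared stretch lies before a gene that is targeted in the study and a neighbour that is not. Capitals mark the shared bases.
Atm (chr9:53536672-53536921, minus strand): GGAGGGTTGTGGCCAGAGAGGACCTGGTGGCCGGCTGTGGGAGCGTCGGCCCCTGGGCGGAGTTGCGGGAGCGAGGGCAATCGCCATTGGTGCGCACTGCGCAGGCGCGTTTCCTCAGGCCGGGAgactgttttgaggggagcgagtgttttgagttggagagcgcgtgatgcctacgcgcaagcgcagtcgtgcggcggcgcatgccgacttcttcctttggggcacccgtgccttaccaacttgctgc
Npat (chr9:53536797-53537046, plus strand): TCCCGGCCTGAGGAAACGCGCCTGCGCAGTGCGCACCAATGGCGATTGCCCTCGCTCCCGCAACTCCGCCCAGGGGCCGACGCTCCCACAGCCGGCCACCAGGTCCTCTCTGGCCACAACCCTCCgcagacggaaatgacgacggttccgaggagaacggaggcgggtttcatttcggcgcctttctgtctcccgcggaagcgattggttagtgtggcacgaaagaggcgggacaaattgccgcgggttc
The shared stretch holds 1 CCAAT box and 1 GC box. Npat had 7.57, 8.03 and 6.38 CPM in early Atm+/+ and 7.64, 7.65 and 9.63 CPM in early Atm-/-. It had 8.15, 9.50 and 9.77 CPM in late Atm+/+ and 9.49, 8.19 and 6.14 CPM in late Atm-/-. The genotypes overlapped at both passages, and the differences were 0.18 (SE 0.20, adjusted p = 0.657) and -0.20 (SE 0.21, adjusted p = 0.546), or 0.11 and -0.03 in the 13 libraries. Irradiated cells had 10.5, 10.9 and 10.2 CPM, above every early Atm+/+ library, with a log2 difference of 0.52 (SE 0.20, adjusted p = 0.0728). In the 13 libraries this passed, at 0.48 (SE 0.15, adjusted p = 0.0179). Atm in the same comparison was at 0.01 in the 15 libraries (SE 0.52, adjusted p = 0.991) and at 0.81 in the 13 (SE 0.33, adjusted p = 0.0573), and it passed in neither.

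Windows of 300 bases, 250 before to 50 after the start, were available in RefSeq for 7 of the 9 members (Prkdc and Tti2 have none here). Motifs were searched on both strands, and none of the letter strings contains another. The CCAAT box, spelled CCAAT, occurred in Atm, Smg1, Mtor and Telo2, and in 37.4% of all 32851 promoters searched. For the GC box, with the letters GGGCGG, there were matches in Atm, Atr, Smg1, Mtor and Trrap, against 35.7% of all. Smg1 held 5 GC boxes and Mtor held 4 CCAAT boxes. The TATA box was searched as TATAAA, and these letters were found in Atm alone of these members (13.6% of all). The 250 bases shown before the Atm start hold no such match on either strand, so it lies in the 50 bases after the start. An ETS site (CCGGAAGT) was found in Mtor alone (3.89% of all). Neither an E2F site (TTTNGCGC, in 1.38% of all) nor a cyclic AMP element (TGACGTCA, in 1.79% of all) was found in any of the 7. A match describes letters in a window and is no evidence of binding.

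Atr, the replication stress kinase (chr9:95857597-95951781, plus strand), had 7.20, 6.10 and 6.33 CPM in early Atm-/-, 6.83, 8.41 and 6.78 in late Atm+/+, and 6.38, 6.44 and 6.09 in irradiated cells. It stood at 5.15 and 7.78 CPM in early Atm+/+ replicates 1 and 2, and at 0.0484 CPM in replicate 3. That last value is 1 read (exact Poisson 95% interval 0.0253 to 5.57, counting error only), where the mean of the other replicates at the depth of this library is 133.7 reads. Of 14573 genes compared in this way 2.71% had a lower ratio. Late Atm-/- had 9.51, 7.29 and 14.9 CPM, with the highest value again in the library with few genes detected (170 reads against 95.8).
Atr was higher in every late Atm-/- library than in every early Atm-/- library, at a log2 difference of 0.68 (SE 0.75, adjusted p = 0.595) and 0.39 (SE 0.19, adjusted p = 0.152) in the 13 libraries. In the genotype comparison it was at 0.58 (SE 0.75, adjusted p = 0.701) at passage 2 and at 0.52 (SE 0.75, adjusted p = 0.670) at passage 8. These became 0.03 (SE 0.19) and 0.22 (SE 0.19) in the 13 libraries. No Atr comparison passed. A pair of antisense genes shares exonic bases with Atr and holds at most 2 and 35 reads per library, and whether the counting used strand is not known here.

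Prkdc, the DNA-PK catalytic subunit of end joining (chr16:15637866-15842235, plus strand, 86 exons), stayed between 6.93 and 12.0 CPM over all libraries. It was at 10.4, 12.0 and 7.21 CPM in early Atm+/+ and at 9.72, 10.7 and 10.9 CPM in early Atm-/-, which overlapped. It was at 9.21, 9.50 and 10.5 CPM in late Atm+/+, 8.99, 9.28 and 6.93 in late Atm-/-, and 9.22, 9.30 and 8.64 in irradiated cells. All late Atm-/- libraries lay below all early Atm-/- libraries, but the difference of -0.31 (SE 0.21, adjusted p = 0.366) did not pass, nor did -0.17 (SE 0.12, adjusted p = 0.355) in the 13 libraries. The genotype differences were 0.08 (SE 0.21) and -0.21 (SE 0.21), with adjusted p = 0.861 and 0.528, and -0.09 and -0.07 in the 13 libraries.

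Smg1, the kinase that phosphorylates UPF1 in nonsense-mediated decay (chr7:118131308-118243670, minus strand), was lowest and most variable in early Atm+/+ cells. It had 16.1, 24.1 and 7.45 CPM in early Atm+/+ against 28.8, 28.8 and 29.4 CPM in late Atm+/+ and 28.4, 27.1 and 26.4 CPM in irradiated cells. Both later groups lay wholly above passage 2. The log2 differences were 0.86 (SE 0.32, adjusted p = 0.0640) and 0.77 (SE 0.32, adjusted p = 0.0825), which did not pass. In the 13 libraries they were smaller and passed, at 0.55 (SE 0.15, adjusted p = 0.0122) and 0.49 (SE 0.15, adjusted p = 0.0197). The 2 differences share the early Atm+/+ libraries, of which replicate 3 held 154 Smg1 reads where the mean of its fellow replicates corresponds to 416.
In Atm-/- cells Smg1 had 19.3, 26.5 and 23.9 CPM at passage 2 and 26.2, 26.9 and 15.9 CPM at passage 8, which overlapped, with a difference of -0.01 (SE 0.31, adjusted p = 0.987), or 0.22 in the 13 libraries. Each late Atm-/- library was below each late Atm+/+ library, at -0.33 (SE 0.31, adjusted p = 0.510), or -0.11 in the 13 libraries. The difference of the passage effects was -0.87 (SE 0.44, adjusted p = 0.202), and -0.33 (SE 0.22, adjusted p = 0.294) in the 13 libraries.

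Mtor, the growth kinase of the complexes mTORC1 and mTORC2 (chr4:148448611-148557683, plus strand), varied little, between 27.5 and 38.2 CPM. It had 28.5, 31.7 and 27.5 CPM in early Atm+/+ and 28.4, 29.7 and 30.6 CPM in early Atm-/-. Higher values were seen in late Atm+/+ (35.0, 34.4 and 38.2 CPM) and in irradiated cells (35.7, 33.1 and 36.4 CPM), and both groups lay above early Atm+/+ without overlap. The differences of 0.30 (SE 0.11, adjusted p = 0.0698) and 0.26 (SE 0.11, adjusted p = 0.0929) did not pass, and in the 13 libraries 0.28 (SE 0.09, adjusted p = 0.0247) and 0.27 (SE 0.09, adjusted p = 0.0257) did. Late Atm-/-, at 30.3, 30.4 and 32.2 CPM, lay below every late Atm+/+ library, at -0.21 (SE 0.11, adjusted p = 0.225) and -0.22 (SE 0.09, adjusted p = 0.0830) in the 13 libraries. Its level was 0.07 (SE 0.11, adjusted p = 0.737) from that of early Atm-/-. The difference of the passage effects was -0.23 (SE 0.16, adjusted p = 0.335), and -0.21 in the 13 libraries.

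Trrap, the scaffold (chr5:144767732-144859778, plus strand, 71 exons), passed no comparison in edgeR. It had 71.3, 77.1 and 48.9 CPM in early Atm+/+ and 63.6, 66.7 and 67.6 CPM in early Atm-/-. It had 77.6, 69.8 and 79.7 CPM in late Atm+/+, 65.2, 61.9 and 49.3 in late Atm-/-, and 79.8, 68.0 and 80.6 in irradiated cells. The lowest value of each of 2 groups was thus in the library with few genes detected. At passage 8 every Atm-/- library lay below every Atm+/+ library, with a difference of -0.36 (SE 0.16, adjusted p = 0.163) and -0.23 (SE 0.09, adjusted p = 0.0859) in the 13 libraries.

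Telo2, the TTT subunit that binds PIKKs and recruits HSP90 through R2TP (chr17:25099570-25115967, minus strand, 10 exons), was the member with the clearest pattern. Its upstream sequence is shown because Telo2 is the one member that passed, and capitals mark the CCAAT box, which begins 94 bases before the RefSeq start.
Telo2 (chr17:25115968-25116217, minus strand): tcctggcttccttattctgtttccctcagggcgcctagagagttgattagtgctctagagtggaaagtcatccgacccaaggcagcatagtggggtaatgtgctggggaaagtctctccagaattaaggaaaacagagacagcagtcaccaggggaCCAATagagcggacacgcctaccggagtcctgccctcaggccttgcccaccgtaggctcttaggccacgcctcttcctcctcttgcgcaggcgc
Telo2 had 28.2, 23.6 and 26.7 CPM in early Atm+/+ (mean 26.1 ± 2.34, SD, n = 3). It had 17.2, 18.4 and 19.7 CPM in late Atm+/+ (18.4 ± 1.25) and 17.8, 15.0 and 15.6 CPM in irradiated cells (16.1 ± 1.46). Neither later group overlapped early Atm+/+ cells. Telo2 fell by 0.51 on the log2 scale over the passages (SE 0.13, adjusted p = 0.0157). It was lower by 0.70 in irradiated than in early Atm+/+ cells (SE 0.13, adjusted p = 0.00275), where radiation and time in culture were not separated. Both calls held in the 13 libraries, at -0.47 (SE 0.11, adjusted p = 0.00526) and -0.64 (SE 0.11, adjusted p = 0.000652). Irradiated and passage 8 cells overlapped, with a difference of -0.19 (SE 0.13, adjusted p = 0.562), or -0.17 in the 13 libraries.
In Atm-/- cells Telo2 had 20.8, 19.8 and 20.7 CPM at passage 2 and 19.9, 22.3 and 19.3 CPM at passage 8, which overlapped. The passage difference there was 0.01 (SE 0.13, adjusted p = 0.975), and 0.07 in the 13 libraries. Already at passage 2 all Atm-/- libraries lay below all Atm+/+ libraries, at -0.36 (SE 0.13), which did not pass in edgeR (adjusted p = 0.243, unadjusted 0.0186) and did in DESeq2 (-0.38, adjusted p = 0.0317). At passage 8 the genotypes overlapped, at 0.16 (SE 0.13, adjusted p = 0.455). In the 13 libraries the genotype differences were -0.32 (adjusted p = 0.120) and 0.22 (adjusted p = 0.179). The test of the difference of the passage effects gave 0.51 (SE 0.19, adjusted p = 0.0959) in the 15 libraries, 0.54 (SE 0.16, adjusted p = 0.0418) in the 13 libraries, and adjusted p = 0.0139 in DESeq2.

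The passage call for Telo2 was lost without early Atm+/+ replicate 1 (adjusted p = 0.0683) or late Atm+/+ replicate 1 (0.0766) or 2 (0.0557), where the fall was 0.44 to 0.55 over all libraries left out in turn. It was also lost with no filter (0.0784) and with only the groups compared (0.0567). The irradiation call held in 15 of 15 such fits (-0.71 to -0.58). On the log2(TPM + 1) scale, limma gave -0.25 (adjusted p = 0.357) for passage and -0.24 (adjusted p = 0.342) for irradiation, where the median of all genes had itself moved by 0.19 and 0.32. Relative to that median Telo2 was at -0.44 and -0.56, and in the 13 libraries limma called both on the TPM scale (-0.37, adjusted p = 0.0295, and -0.36, adjusted p = 0.0252). The summed macrophage and endothelial markers were also lower in late than in early Atm+/+ cells. In irradiated cells the endothelial markers (65.1 to 199.7 against 227 to 627 CPM) and 6 epithelial markers (0.465 to 0.950 against 3.94 to 17.6 CPM) were lower than in early Atm+/+ cells, without overlap. The part of these cells in the Telo2 results was not tested.

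Tti1, the TTT scaffold subunit (chr2:157981803-158028433, minus strand), moved otherwise than Telo2. It had 15.8, 16.9 and 9.34 CPM in early Atm+/+, 16.5, 17.1 and 17.1 in late Atm+/+, and 19.4, 20.0 and 21.3 in irradiated cells. Irradiated cells lay above both other Atm+/+ groups without overlap. The difference from passage 2 was 0.53 (SE 0.24, adjusted p = 0.114) and in the 13 libraries 0.35 (SE 0.10, adjusted p = 0.00961), which passed. The difference from passage 8 was 0.26 (SE 0.24, adjusted p = 0.715), and 0.28 (SE 0.09, adjusted p = 0.0272) in the 13 libraries.
Tti1 had 19.2, 19.8 and 17.9 CPM in early Atm-/- and 14.3, 14.4 and 7.80 CPM in late Atm-/-. These groups did not overlap, at -0.63 (SE 0.24, adjusted p = 0.104), and the fall of 0.38 in the 13 libraries passed (SE 0.10, adjusted p = 0.0107). At passage 2 every Atm-/- library was above every Atm+/+ library (0.43, SE 0.24, adjusted p = 0.371) and at passage 8 every one was below (-0.46, SE 0.24, adjusted p = 0.219). Neither genotype difference passed, in the 15 or the 13 libraries (0.23 and -0.22 in the 13).

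Tti2, the small TTT subunit (chr8:31150315-31164702, plus strand), had 12.1, 16.6 and 15.5 CPM in early Atm+/+, 12.7, 15.2 and 12.6 in early Atm-/-, and 14.7, 16.6 and 16.3 in late Atm+/+. It had 12.5, 15.4 and 4.47 CPM in late Atm-/- and 15.8, 15.4 and 15.8 in irradiated cells. No 2 groups that were compared were free of overlap. The lowest value, in late Atm-/- replicate 3, is 51 reads (exact Poisson 95% interval 38.0 to 67.1) where its fellow replicates correspond to 159. The passage 8 genotype difference was -0.54 (SE 0.31, adjusted p = 0.271) with that library and -0.17 (SE 0.15, adjusted p = 0.414) in the 13 libraries. Tti2 shares 882 exonic bases with Mak16 on the opposite strand (459 to 1294 reads per library), so that reads of the 2 genes may be mixed if the counting did not use strand.

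**Figure D3:**
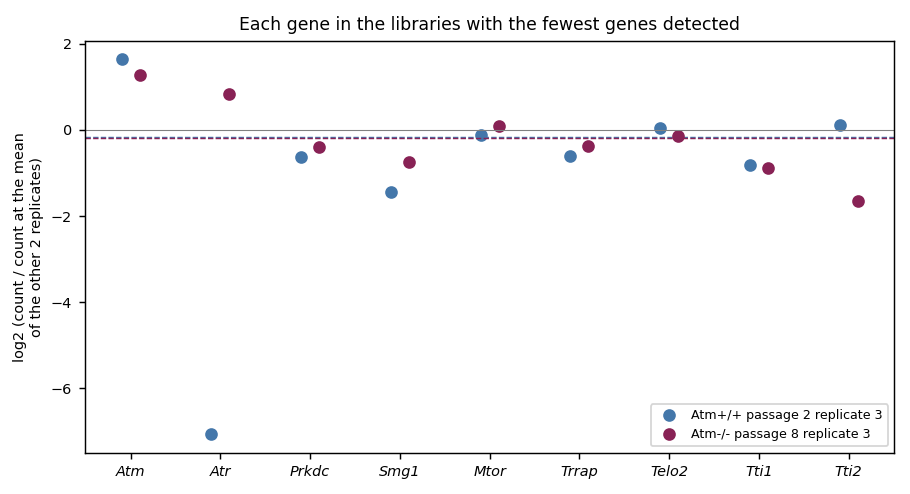
Read count of each gene in the libraries with the fewest genes detected, over the count that the mean of the other 2 replicates gives at the same depth, as log2. Dashed lines are the median of all genes (ratios 0.894 and 0.871). Atr has 1 read against 133.7 in early Atm+/+ replicate 3, and Atm is above the line in both libraries (64 reads against 20.6, and 27 against 11.2).

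The pattern in the pair of outlying libraries was not one of lower values throughout. Atm held 64 reads against 20.6 in the early Atm+/+ library and 27 against 11.2 in the late Atm-/- library, both higher. Smg1, Prkdc, Trrap and Tti1 were lower in both, with 154, 149, 1010 and 193 reads against 416, 231.5, 1534 and 339 in the first. In the second they held 181, 79, 562 and 89 reads against 303, 104, 725 and 164. Prkdc and Trrap were not unusual there, as 42.7% and 43.9% of the genes compared had a lower ratio. For Smg1 and Tti1 this share was 31.8% and 28.6%. Mtor and Telo2 stayed close to their fellow replicates in both, with 568 and 551 reads against 622 and 535 in the first. Genes with exonic models of at least 6 kb had median ratios of 0.814 and 0.838, against 0.894 and 0.871 for all genes compared. Tti1, at 4129 bases, is the one member whose exonic model is shorter than 6 kb.

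Read by comparison, 0 of 9 members passed between genotypes in edgeR, at passage 2 (background 0.969%) or passage 8 (9.32%). At an unadjusted p under 0.05 there was 1 at each passage, Telo2 and Trrap. DESeq2 called 1 (Telo2, background 5.05%) and 0 (19.8%). The 13 libraries called 0 and 0 (backgrounds 5.35% and 25.0%), with 2 and 4 at an unadjusted p under 0.05. The median log2 difference of the 9 was 0.02 at passage 2, against 0.04 over all tested genes, and -0.24 at passage 8, against -0.08 over all genes and -0.19 over tested genes of at least 6 kb. Libraries did not overlap for 2 of 9 members at passage 2 (Telo2 lower and Tti1 higher without Atm, background 25.8%) and for 4 of 9 at passage 8 (Mtor, Smg1, Trrap and Tti1, all lower, background 39.8%).

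Over the passages of Atm+/+ cells 1 of 9 members passed (background 23.3%), and 3 of 9 did in the 13 libraries (40.1%) and in DESeq2 (32.5%). The members' median was 0.20, against 0.00 for all genes and 0.14 for genes of at least 6 kb. Groups were free of overlap for 3 of 9 (background 47.5%). Over the passages of Atm-/- cells 0 of 9 passed (13.0%), with 1 at an unadjusted p under 0.05, and 1 of 9, Tti1, passed in DESeq2 (20.0%) and in the 13 libraries (27.2%). There the median was -0.09, against -0.08 for all genes, and 3 of 9 did not overlap (37.0%).

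After irradiation 1 of 9 passed against early Atm+/+ (27.5%), and 4 of 9 in the 13 libraries (46.3%) and in DESeq2 (37.0%), with a median of 0.21 against -0.01 for all genes and 0.18 for genes of at least 6 kb. Groups did not overlap for 4 of 9 (55.0%). Against late Atm+/+, 0 of 9 passed (6.89%), none had an unadjusted p under 0.05, DESeq2 called 0 (11.0%), and the 13 libraries called 1 (25.5%). Libraries of these groups did not overlap for Atr and Smg1 (lower in irradiated cells) and Tti1 (higher), 3 of 9 (48.4%). The difference of the passage effects passed for 0 of 9 (4.43%), with 2 at an unadjusted p under 0.05 (Telo2 and Tti1), and both passed in the 13 libraries (13.8%) and in DESeq2 (19.9%). In the 15 libraries edgeR called a smaller share of the members than of all genes in each of these 7 comparisons, and 9 genes give a coarse share. The comparisons of passage, irradiation and early genotype share the early Atm+/+ libraries.

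**Figure D4:**
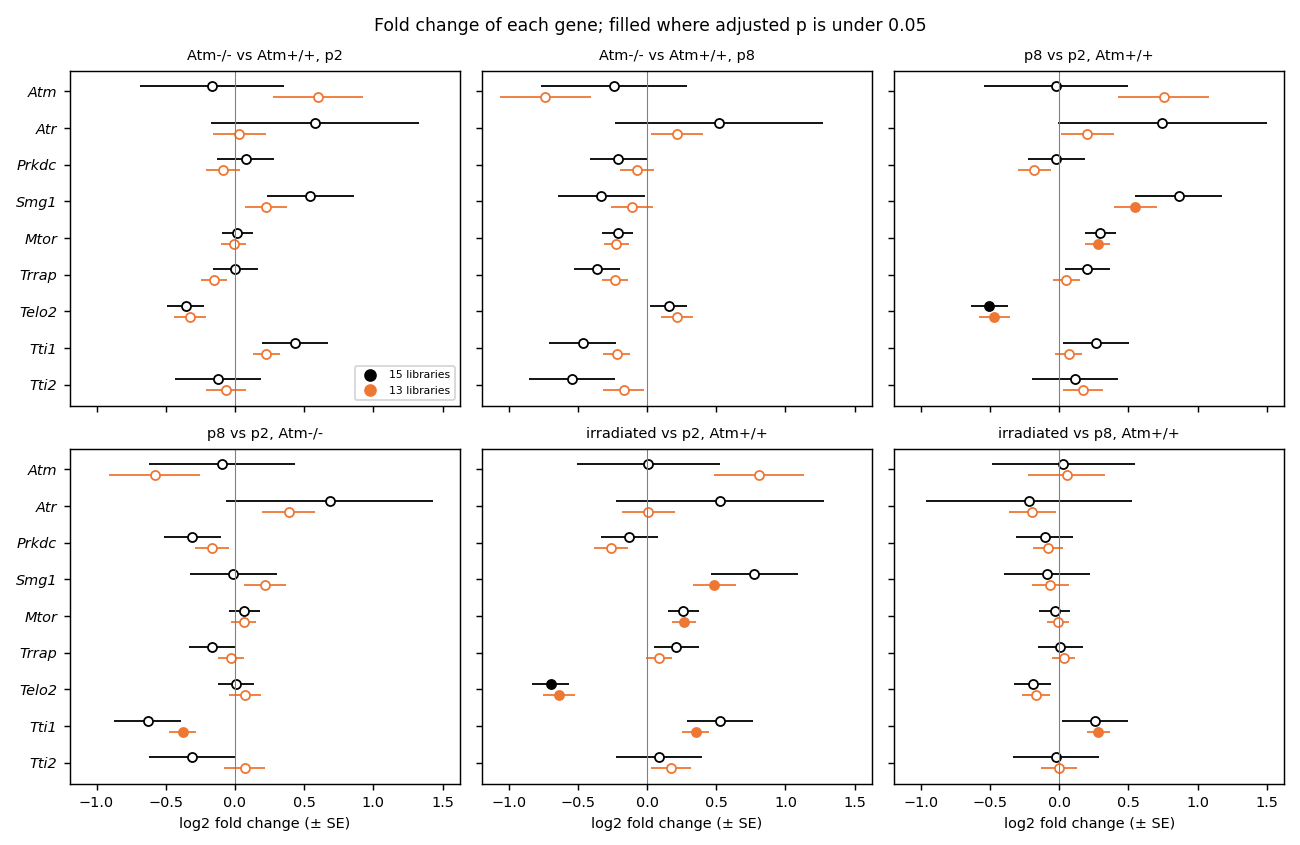
Log2 fold change of each gene in 6 comparisons, with its standard error, in the fits of 15 libraries (black) and 13 libraries (orange). Filled points have an adjusted p under 0.05 in edgeR. Telo2 is filled in both fits for Atm+/+ passage (-0.51 and -0.47) and irradiation (-0.70 and -0.64), and no point is filled in the genotype comparisons.

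Known partners of the kinases were taken as 61 genes in 7 lists, and all 61 were tested. Between the genotypes 0 of 61 passed at passage 2 (0.969% of all genes), where 2 passed in DESeq2 (5.05%) and 3 in the 13 libraries (5.35%). At passage 8 it was 1 (9.32% of all genes), Prr5l, a subunit of mTORC2, at 0.285 ± 0.0543 CPM in Atm+/+ and 1.60 ± 0.750 CPM in Atm-/- cells (SD, n = 3), a log2 difference of 2.45 (SE 0.44, adjusted p = 0.00499). This call was lost with only these groups fitted and on log2(TPM + 1). DESeq2 called 8 (19.8% of all genes) and the 13 libraries 10 (25.0%), Prr5l at 2.34. The median of the 61 genes was 0.03 at passage 2 and 0.01 at passage 8.

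Over the passages of Atm+/+ cells 2 of 61 partners rose (9.80% of all genes) and 7 fell (13.5%), and in the 13 libraries 17 passed (40.1%). The mTOR list held the largest number, with 1 of 11 higher and 3 lower. Prr5l had 4.56, 5.75 and 4.74 CPM at passage 2 and 0.344, 0.237 and 0.275 CPM at passage 8, without overlap, and fell by 4.11 on the log2 scale (SE 0.45, adjusted p = 2.77e-05). Prr5, its paralogue in mTORC2, fell by 1.49 (SE 0.26, adjusted p = 0.00113). Deptor, an inhibitor of both mTOR complexes, was at -2.56, and Rheb, the GTPase that activates mTORC1, at 1.58. Single calls in other lists were Rad17, the loader of the checkpoint clamp for ATR (0.99), the ATM mediator Mdc1 (-0.40), the end-joining factor Paxx (-1.32), the TRRAP partner Dmap1 (-0.82) and the R2TP subunit Pih1d1 (-1.15). They were 0.71, -0.41, -0.63, -0.48 and -0.71 in the 13 libraries, where Prr5l, Prr5, Deptor and Rheb were at -4.13, -1.08, -2.81 and 1.17. Paxx had 41.3, 25.5 and 93.5 CPM in early Atm+/+ and was at -0.62 without replicate 3. With a library left out, Mdc1 was called in 1 of 15 fits, and Paxx and Pih1d1 in 4 of 15 each. Of the 9 calls 3 held whichever library was left out (Prr5l, Prr5 and Rheb), though Rheb was lost with only the groups compared. Summed macrophage markers were 1666 to 2284 CPM in early and 61.5 to 92.1 CPM in late Atm+/+ cells. Summed endothelial markers were 227 to 627 and 2.09 to 3.19 CPM. The part of other cell types in the partner results was not tested in any comparison.

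Over the passages of Atm-/- cells 1 of 61 rose (4.76% of all genes) and 2 fell (8.25%). Hsp90aa1, the inducible HSP90, had 164, 148 and 145 CPM at passage 2 and 322, 240 and 522 CPM at passage 8, a rise of 1.24 (SE 0.29, adjusted p = 0.00990) that held whichever library was left out and was lost with only the groups compared. It was at 0.91 in the 13 libraries. Clspn, which brings CHK1 to ATR, was at -1.12 and Deptor at -2.26, and both calls were lost when any of several libraries was left out. Clspn was at -0.97 and Deptor at -1.82 in the 13 libraries, where 12 of 61 passed (27.2% of all genes). The difference of the passage effects passed for 1 of 61 (4.43% of all genes), Prr5l (2.87, SE 0.58, adjusted p = 0.0226), in 8 of 15 fits with a library left out. Prr5l was at 2.78 in the 13 libraries, where 8 of 61 passed (13.8%).

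Against early Atm+/+, irradiated cells had 4 of 61 partners higher (11.0% of all genes) and 14 lower (16.5%), and 29 passed in the 13 libraries (46.3%). Clspn went from 5.93, 7.67 and 3.53 CPM to 2.07, 2.20 and 2.15 CPM, without overlap, and fell by 1.42 (SE 0.32, adjusted p = 0.00663). Prr5 fell by 1.53 (SE 0.26, adjusted p = 0.00140). These 2 of the 18 calls held whichever library was left out, and that of Clspn was lost in limma on log2(TPM + 1) and log2(TPM + 0.1) of all libraries. They were at -1.62 and -1.09 in the 13 libraries. Of the others, Chek1, the kinase activated by ATR, was at -1.46 with 1.80, 1.86 and 5.56 CPM in early cells and 0.955, 1.32 and 1.03 CPM after irradiation, and at -0.68 in the 13 libraries. Rad17 (0.94), Trp53bp1 (0.82), Rheb (1.39) and Rictor (1.36) were higher, and Deptor (-2.12), Prr5l (-1.30), Paxx (-1.68), Pih1d1 (-1.46), Smg9 (-1.18), Epc1 (-0.45), Dmap1 (-0.72), Mcrs1 (-0.67), Mlst8 (-0.64) and Mdc1 (-0.43) lower. The first 4 were at 0.68, 0.61, 1.00 and 0.93 in the 13 libraries. Those lower were, in the same order, at -2.36, -1.29, -0.96, -0.99, -0.60, -0.34, -0.36, -0.34, -0.42 and -0.42, and Mlst8 did not pass there (adjusted p = 0.0564). The median of the 61 was -0.10, against -0.01 over all genes. Against late Atm+/+, 2 of 61 passed (6.89% of all genes): 1 rose (Prr5l, 2.81, SE 0.44, adjusted p = 0.00111) and 1 fell (Clspn, -1.18), at 2.84 and -1.15 in the 13 libraries, where 6 of 61 passed (25.5%).

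For each member, the 2 genes whose log2 CPM followed it most closely over the 15 libraries were found among about 10323 genes, as a description in libraries that share 5 groups and the outlying pair. For Telo2 they were Sorbs3 and Nfib (Pearson r = 0.93 each), and they stayed at 0.93 and 0.92 in the 13 libraries. Smg1 was closest to Rassf1 (0.99), at 0.96 in the 13. For Mtor they were Secisbp2l (0.94) and Stim1 (0.93), at 0.93 each in the 13. Trrap was closest to Srrm1 (0.96) and Synj1 (0.94), and Prkdc to Hmgb1 (0.93) and Wdr82 (0.92). These were at 0.87 and 0.89, and at 0.84 and 0.87, in the 13 libraries. Tti1 was closest to Bivm and Skap2 (0.97 each), and Tti2 to Rab5b and Cbx7 (0.97 each), with 0.84 and 0.82, and 0.79 and 0.80, in the 13. Atr was closest to Inpp1 (0.98) and Lrif1 (0.97), which dropped to 0.60 and 0.46, so that the likeness to these genes rested on the outlying pair. Atm had the weakest likeness over the 15 libraries, to Ppm1b (0.81) and Slc25a15 (0.80), with 0.66 and 0.65 in the 13 libraries. All these genes were picked with the outlying pair included. Picked anew in the 13 libraries, the closest gene was Srfbp1 for Atr (0.89) and Pde8b for Atm (0.87).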

How the data were processed

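Gene counts deposited by the authors, for 48440 genes in 15 libraries, were the measurement tested. The submitters' processing notes name featureCounts, SAMtools 1.3.1 and the build mm10. Neither the aligner nor the strand setting is named there, and overlapping or antisense genes may share reads. The authors also deposited TPM for 48082 genes, which were used to compare levels between genes. Gene IDs were named with GENCODE vM21 (GRCm38).

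A filter on low counts (filterByExpr) left 18167 genes. Normalisation was TMM, and 1 robust edgeR 4.0.16 quasi-likelihood fit (R 4.3.3) held all 15 libraries with a mean per group. P-values were two-sided and adjusted over all tested genes (Benjamini-Hochberg, threshold 0.05). CPM are normalised with the TMM factors. Alternatives were DESeq2 1.42.0, its size factors, no filter, a stricter filter (at least 1 CPM in 3 libraries and a mean count of at least 50), only the groups compared, the replicate number as a block, each library left out, limma 3.58.1 on log2(TPM + 1) and log2(TPM + 0.1) of genes with at least 0.5 TPM in 3 libraries, and, added after the data were seen, the 13 libraries. The edgeR fit was tested on simulated data. P-values of this fit rest on a spread between libraries that is estimated over all 5 groups together, with 3 libraries per group. The fit took the libraries as independent, though groups of the same genotype may share cultures.

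The members, partner lists and marker lists were chosen with earlier results of these data known. All 9 members, Npat, annotated genes overlapping a member, the 2 genes most correlated with each member (mean log2 CPM of at least 2, no predicted or clone-based symbol), and called genes of the partner lists were named. The plan was up to 4 called genes with the lowest p per partner list and comparison. More of the mTOR list were named for irradiated against early Atm+/+ cells. Some genes that these rules select are not reported here. Promoters and upstream sequences are from RefSeq GRCm38.p6.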

Additional observations from a re-analysis of the deposited data

Results flagged for a closer look

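The order of the genotypes for Tti1 was opposite at the 2 passages, though neither genotype difference passed (0.43, adjusted p = 0.371, and -0.46, adjusted p = 0.219, in edgeR). All 3 Atm-/- libraries were above all 3 Atm+/+ libraries at passage 2 and below them at passage 8. Genotypes did not overlap, in either direction, for 25.8% of all genes at passage 2 and 39.8% at passage 8. The share of genes with opposite orders at the passages was not counted. The genotype effect at passage 8 minus that at passage 2 was -0.90 (log2, SE 0.34), with adjusted p = 0.103 in edgeR. The test of this difference passed in the 13 libraries (-0.45, SE 0.14, adjusted p = 0.0462) and in DESeq2 (adjusted p = 0.0356). It also passed once early Atm+/+ replicate 2 was left out (-1.07, adjusted p = 0.0432), a fit that kept the outlying replicate 3. Of all genes 13.8%, 19.9% and 24.7% passed in these fits, against 4.43% in edgeR on the 15 libraries. Tti1 was flagged by the opposite order of its genotypes in the same data. On leaving out each of the 15 libraries in turn the difference ran from -1.07 to -0.68.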

How the results depend on the processing

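Counts of the 9 members that passed depended on the libraries and the tool, while 0 results changed direction past the threshold. Over Atm+/+ passage the count of 1 became 0 with no filter, with only the groups compared and in both limma fits of all libraries, on log2(TPM + 1) and on log2(TPM + 0.1), it became 2 with the stricter filter, and 3 in the 13 libraries and in DESeq2. All genes called there were 11.2%, 15.9%, 19.9%, 16.9%, 27.9%, 40.1% and 32.5% in the order named. Leaving out 1 library gave 0 to 3. For irradiation against passage 2 the count of 1 became 4 in the 13 libraries, in DESeq2 and in limma on log2(TPM + 1) of the 13 libraries, and 2 in limma on log2(TPM + 1) of all libraries, with a range of 1 to 4 on leaving out 1 (all genes 46.3%, 37.0%, 47.4% and 33.2% in that order). Telo2 was not among those 2. In limma on log2(TPM + 0.1) of all libraries the count stayed at 1 (all genes 27.0%), but the gene was Mtor (0.68, adjusted p = 0.0417). Telo2 did not pass there (-0.26, adjusted p = 0.363). For Atm-/- passage the count of 0 became 1 in the 13 libraries (all genes 27.2%), in DESeq2 (20.0%) and in limma on the 13 libraries (21.9%). It was 0 to 1 on leaving out 1. For the early genotype comparison the count became 1 in DESeq2 (all genes 5.05%). For irradiation against passage 8 it became 1 in the 13 libraries (25.5%), with only the groups compared (36.4%) and in limma on the 13 libraries (25.4%). The difference of the passage effects went from 0 to 2 in the 13 libraries (all genes 13.8%) and in DESeq2 (19.9%), with 0 to 3 on leaving out 1. Any difference among the groups went from 1 to 0 with no filter (all genes 18.2%) and in both limma fits of all libraries (35.0% and 28.8%). It went to 4 in the 13 libraries (64.3%), to 3 in DESeq2 (51.5%) and to 3 in limma on the 13 libraries (62.4%). The range was 0 to 3 on leaving out 1. In limma on the 13 libraries the 3 were Mtor, Trrap and Tti1, so that Telo2 was not among them. The Telo2 passage call was lost with no filter (adjusted p = 0.0784) and with only the groups compared (0.0567). Partner genes called over Atm+/+ passage numbered 3 to 18 on leaving out 1 library (9 in all 15), 2 to 26 for irradiation against passage 2 (18), 1 to 6 for Atm-/- passage (3), 1 to 9 for the late genotype comparison (1), 0 to 5 for the early one (0), 1 to 3 for irradiation against passage 8 (2) and 0 to 19 for the difference of the passage effects (1). The counts of 18, 19 and 5 partners were reached without early Atm+/+ replicate 2, where 35.2%, 24.7% and 9.58% of all genes passed. Those of 26 and 9 were reached without late Atm-/- replicate 3 (44.4%) and replicate 2 (17.7%). The causes were not tested. Atm did not pass the TPM filter, so limma covered 8 members.

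With the replicate number as a replicate block in edgeR, 2 members passed for Atm+/+ passage (all genes 22.7%) and 2 for irradiation against passage 2 (26.5%). Smg1 joined Telo2 in both (0.95, adjusted p = 0.0376, and 0.86, adjusted p = 0.0489). Other member counts kept their value under the block. Same-numbered libraries had correlations of -0.20 to 0.22 after group means were removed, and in no pair of groups were all 3 above 0.1. This cannot decide whether the numbers pair the libraries, since an outlying library shifts the mean of its group of 3. The main fit left the numbers out, as no label states a pairing.

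Atm is limited by its 27 to 85 reads per library.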

Other observations

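The ratio of Telo2 to Tti1, taken within each library on the deposited TPM, was chosen after the values were seen. It was 1.47, 1.15 and 2.36 in early Atm+/+, 0.894, 0.824 and 0.954 in early Atm-/-, and 0.859, 0.885 and 0.949 in late Atm+/+. It was 1.15, 1.28 and 2.04 in late Atm-/- and 0.755, 0.618 and 0.604 in irradiated cells. Telo2 thus exceeded Tti1 in every library of early Atm+/+ and late Atm-/- cells and in no other library. The ratio of Telo2 to Mtor, also taken, overlapped between the passages of Atm-/- cells (1.23 to 1.35 and 1.11 to 1.36) and between irradiated and late Atm+/+ cells (0.792 to 0.917 and 0.905 to 0.984). No test is given, since these pairs of genes were picked for their values. The widest ratios, 2.36 and 2.04, were in the pair of libraries with few genes detected, and the other replicates of those groups (1.15 to 1.47 over both) lay above all libraries of the other 3 groups as well.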
